A study of Mus musculus with 2 samples.

Results

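A set of 10 genes of the G1 phase was followed in whole lung: the D-type cyclins Ccnd1, Ccnd2 and Ccnd3, the E-type cyclins Ccne1 and Ccne2, the transcription factors E2f1 and E2f2, and the kinase inhibitors Cdkn1a, Cdkn1b and Cdkn2c. They were selected by symbol, and all 10 of the 10 were found among 22072 gene symbols, with a mean of 1 FPKM or more over both libraries (FPKM, fragments scaled to transcript length and library size). Each genotype was represented by 1 library made from lung RNA pooled over several mice of the C57/BL6 background. The knockout mice carried Pdgfb-iCreER together with FoxF1 fl/fl, and the control mice carried Foxf1 fl/fl and no Cre. Pdgfb-iCreER is a tamoxifen-inducible Cre recombinase driven by a gene active in endothelial cells, so recombination is directed to the endothelium. The sources used here do not give the number, age and sex of the mice or the tamoxifen schedule. An effect of Cre or of its transgene cannot be told apart from an effect of reduced Foxf1.

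In G1, mitogen signals raise the D-type cyclins, which switch on the kinases CDK4 and CDK6 and start the phosphorylation of the retinoblastoma protein. That releases the E2F factors, which turn on the E-type cyclins and the genes of DNA replication, and cyclin E with CDK2 completes the step into S phase. INK4 inhibitors such as Cdkn2c block CDK4 and CDK6, and the CIP/KIP inhibitors Cdkn1a and Cdkn1b block cyclin E and CDK2. Most cells of the resting adult lung are out of the cycle.

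The windows below show annotated start regions of E2f1, E2f2, Ccne1, Cdkn1b and Cdkn1a. They are RefSeq sequences of GRCm38.p6, printed 5′ to 3′ on the strand of the gene, from 250 bases before to 50 bases after a transcript start. RefSeq windows were matched by symbol for 7 of the 10 genes, 11 windows in all. Ccnd1, Ccnd2 and Ccne2 had none. The windows were not matched to the starts of the transcript records, so a window may lie inside its gene. That of E2f1 reads in large part as protein-coding sequence. The region before the main start of E2f1 may therefore not have been searched. The windows of Cdkn2c and Ccnd3 and the second window of E2f2 were searched but are not printed. Capitals mark letters of an E2F octamer (TTTGGCGC, TTTGCCGC, TTTCGCGC or TTTCCCGC), a CCAAT box, a GC box (GGGCGG), the CHR element (TTTGAA) or a p53 site, each searched on both strands.

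E2f1, chr2:154569377-154569676, minus strand: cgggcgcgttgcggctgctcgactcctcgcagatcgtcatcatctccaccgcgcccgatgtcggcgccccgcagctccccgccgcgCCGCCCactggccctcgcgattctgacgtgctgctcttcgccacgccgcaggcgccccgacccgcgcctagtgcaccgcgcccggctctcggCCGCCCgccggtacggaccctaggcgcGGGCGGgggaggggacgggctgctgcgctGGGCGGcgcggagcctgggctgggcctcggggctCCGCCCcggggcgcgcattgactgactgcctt
E2f2, chr4:136172024-136172323, plus strand: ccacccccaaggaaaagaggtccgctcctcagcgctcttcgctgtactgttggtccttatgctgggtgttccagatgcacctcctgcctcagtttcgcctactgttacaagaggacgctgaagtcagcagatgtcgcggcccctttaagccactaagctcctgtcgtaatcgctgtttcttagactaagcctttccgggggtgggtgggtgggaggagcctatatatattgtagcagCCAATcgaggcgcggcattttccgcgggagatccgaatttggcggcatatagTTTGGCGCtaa
Ccne1, chr7:38107441-38107740, minus strand: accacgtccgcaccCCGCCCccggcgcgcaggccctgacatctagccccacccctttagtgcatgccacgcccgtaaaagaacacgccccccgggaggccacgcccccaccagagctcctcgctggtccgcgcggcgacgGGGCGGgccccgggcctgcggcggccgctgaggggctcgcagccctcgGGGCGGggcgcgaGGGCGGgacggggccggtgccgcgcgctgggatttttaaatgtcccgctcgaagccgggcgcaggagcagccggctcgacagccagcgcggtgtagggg
Cdkn1b, chr6:134920151-134920450, plus strand: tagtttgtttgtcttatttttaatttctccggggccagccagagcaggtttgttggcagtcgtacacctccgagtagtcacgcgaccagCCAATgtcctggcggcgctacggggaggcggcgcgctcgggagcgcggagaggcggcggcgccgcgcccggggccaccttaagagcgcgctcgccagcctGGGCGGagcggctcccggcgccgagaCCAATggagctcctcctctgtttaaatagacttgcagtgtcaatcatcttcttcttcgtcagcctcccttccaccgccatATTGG
Cdkn1a upstream start, chr17:29090729-29091028, plus strand: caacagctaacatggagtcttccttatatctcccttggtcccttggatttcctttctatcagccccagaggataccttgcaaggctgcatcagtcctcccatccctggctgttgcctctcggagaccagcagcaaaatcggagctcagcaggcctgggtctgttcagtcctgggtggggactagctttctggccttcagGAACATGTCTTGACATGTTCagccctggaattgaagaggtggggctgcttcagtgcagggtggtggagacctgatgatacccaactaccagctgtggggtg
Cdkn1a downstream start, chr17:29093519-29093818, plus strand: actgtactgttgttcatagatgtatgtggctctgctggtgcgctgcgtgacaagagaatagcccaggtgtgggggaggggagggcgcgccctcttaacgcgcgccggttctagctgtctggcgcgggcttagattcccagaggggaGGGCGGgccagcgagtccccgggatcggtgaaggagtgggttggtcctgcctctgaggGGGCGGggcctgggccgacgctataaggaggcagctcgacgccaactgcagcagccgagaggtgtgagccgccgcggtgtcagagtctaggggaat

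Among the 11 windows, an E2F octamer was present in 1, that of E2f2, against 2.26% of all 32851 mouse windows. No octamer was found in the windows of E2f1 and Ccne1. Only exact octamers within these 300 bases were searched, and the E2f1 window holds coding sequence. The absence therefore does not show that the promoters of E2f1 and Ccne1 lack E2F sites. GC boxes occurred in 8 of the 11 windows, against 35.7% of all windows, and every one of the 7 genes had at least 1. For E2f2 it lay only in the second window, 8508 bases downstream of the first. CCAAT boxes occurred in 5 windows, against 37.4% of all windows, and the CHR element in 1, the second E2f2 window, against 17.9%. The upstream window of Cdkn1a held a p53 site with 1 mismatch over its 20 bases, starting 51 bases before the transcript start. At most 1 mismatch was allowed after this window had been read, and 0.0548% of all windows met that. A match of letters is a description and not a binding site.

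As a check of the genotype, Foxf1, listed as Foxf1a, had 15.7 FPKM in the knockout pool and 72.1 FPKM in the control pool. Lung markers were present in both pools, with Sftpc of alveolar type 2 cells at 13793 FPKM in the knockout pool and 15925 FPKM in the control pool. Estimated from coverage, depth was about 10.4 M transcript reads for the knockout pool and 13.2 M for the control pool. No difference below has a replicate check and none was tested. The intervals after folds are 95% counting intervals, which leave out differences between mice, pools and preparations. In whole-lung RNA, fewer cells of a type and less RNA per cell cannot be told apart.

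In the knockout pool, 5 of the 10 genes were higher by 1.5-fold or more, as were 9.41% of the 12929 genes of mean FPKM 1 or more. These were Ccnd1, Ccne1, Ccne2, E2f1 and Cdkn2c. None was at least 1.5-fold lower, against 4.63% of all genes. These counts use log2(FPKM + 1) of the knockout pool minus that of the control pool, a scale that understates differences of low genes. The threshold of 2-fold was reached by 3 of the 10, Ccne2, E2f1 and Cdkn2c, against 3.75% of all genes, and by 0 in the lower direction, against 1.25%. The median log2 ratio of the 10 was 0.67, and that of all genes was 0.05. Ratios were above 0 for 8 genes, against 56.8% of all genes, and below 0 for Ccnd2 and Cdkn1b, against 43.2%. The 8 include E2f2 at 0.06 and Cdkn1a at 0.075, both near the median of all genes. Cdkn1a turned to -0.041 when only its most abundant record was used.

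**Figure D1:**
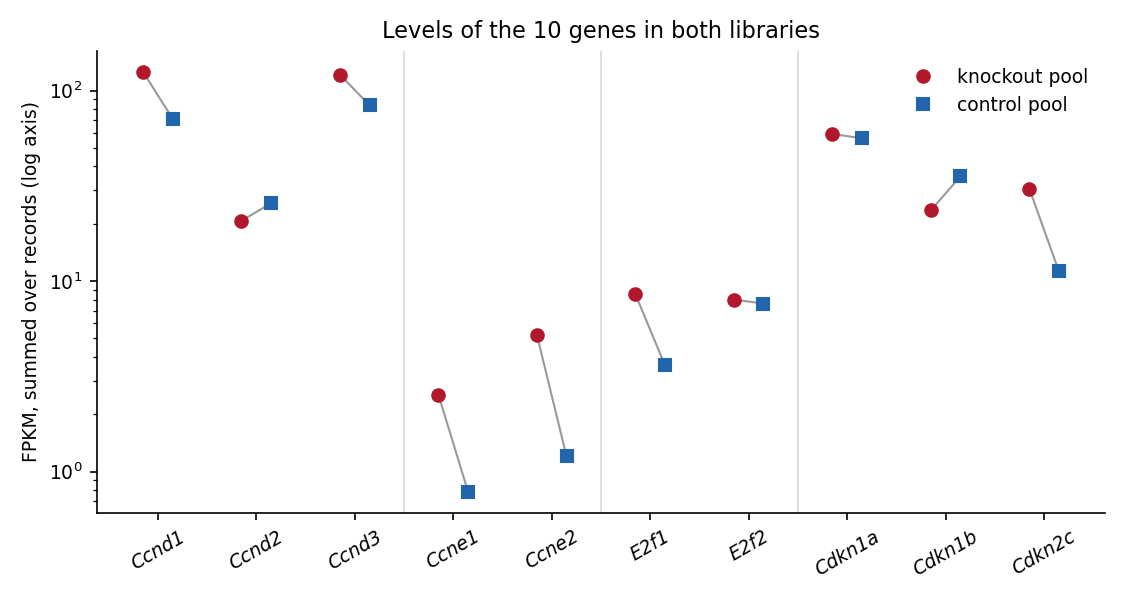
FPKM of the 10 genes in the knockout pool (circles) and the control pool (squares), 1 library each, on a log axis; grey lines join the values of a gene. The E-type cyclins were the least abundant, and Ccnd1 and Ccnd3 the most abundant in both pools.

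By FPKM, which is per length, the order in the knockout pool ran Ccnd1, Ccnd3, Cdkn1a, Cdkn2c, Cdkn1b, Ccnd2, E2f1, E2f2, Ccne2 and Ccne1. In the control pool it ran Ccnd3, Ccnd1, Cdkn1a, Cdkn1b, Ccnd2, Cdkn2c, E2f2, E2f1, Ccne2 and Ccne1. Cdkn2c moved up past Cdkn1b and Ccnd2 in the knockout order, and Ccnd1 and E2f1 each moved above a relative. With 1 library per pool, no spread is available to say which neighbours differ.

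The D-type cyclins were the most abundant of the 5 cyclins among the 10 genes, and they differed from each other in direction. Ccnd1, the cyclin most directly tied to mitogen signals, had 125.6 FPKM in the knockout pool and 71.2 FPKM in the control pool. This was 1.76-fold higher (1.70 to 1.83), from about 6095 reads in the knockout pool and 4461 in the control pool. Only 5.38% of all genes had a higher log2 ratio. Its record lies on chromosome 7 from 152115836 to 152125830 (mm9, the build of all positions from the files).

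Ccnd2, on chromosome 6 from 127075727 to 127101066, encodes the D-type cyclin with a known role in B cells, ovary and nervous system. It had 20.7 FPKM in the knockout pool and 25.6 FPKM in the control pool, 1.24-fold lower (1.16 to 1.32). It went the opposite way from Ccnd1 and stayed within 1.5-fold.

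Ccnd3, known for its role in lymphocyte and red cell precursors, had 121.2 FPKM in the knockout pool and 83.6 FPKM in the control pool. That is 1.45-fold higher (1.38 to 1.53), with a log2 ratio of 0.53, just inside the 1.5-fold threshold of 0.58. The gene has 3 transcript records on chromosome 17 between 47642000 and 47736637, and all 3 carry the status FAIL in the control library and OK in the knockout library. The sources used here do not say what FAIL stands for. The record starting at 47730416 held 119.0 FPKM in the knockout pool and 74.4 FPKM in the control pool, a ratio of 1.60. From this most abundant record alone the log2 ratio was 0.67 and passed the threshold. A record starting 88416 bases upstream held 0.991 FPKM in the knockout pool and 8.79 FPKM in the control pool. The third held 1.20 FPKM in the knockout pool and 0.443 FPKM in the control pool. The records thus differ in direction, and the sum rests on control values with that status. Ccnd3 also overlaps Bysl, on the opposite strand, by 358 bases. Bysl had 8.06 FPKM in the knockout pool and 4.70 FPKM in the control pool, and whether the counting used strand is not given.

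Summed over the family, D-type cyclins had 267.5 FPKM in the knockout pool and 180.5 FPKM in the control pool, a ratio of 1.48. Ccnd1 made up 46.9% of this sum in the knockout pool and 39.5% in the control pool. The share of Ccnd2 was 7.75% in the knockout pool and 14.2% in the control pool. Ccnd3 held close to the same share, 45.3% in the knockout pool and 46.3% in the control pool. The order of levels put Ccnd1 above Ccnd3 in the knockout pool and below it in the control pool, with Ccnd2 lowest in both.

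**Figure D2:**
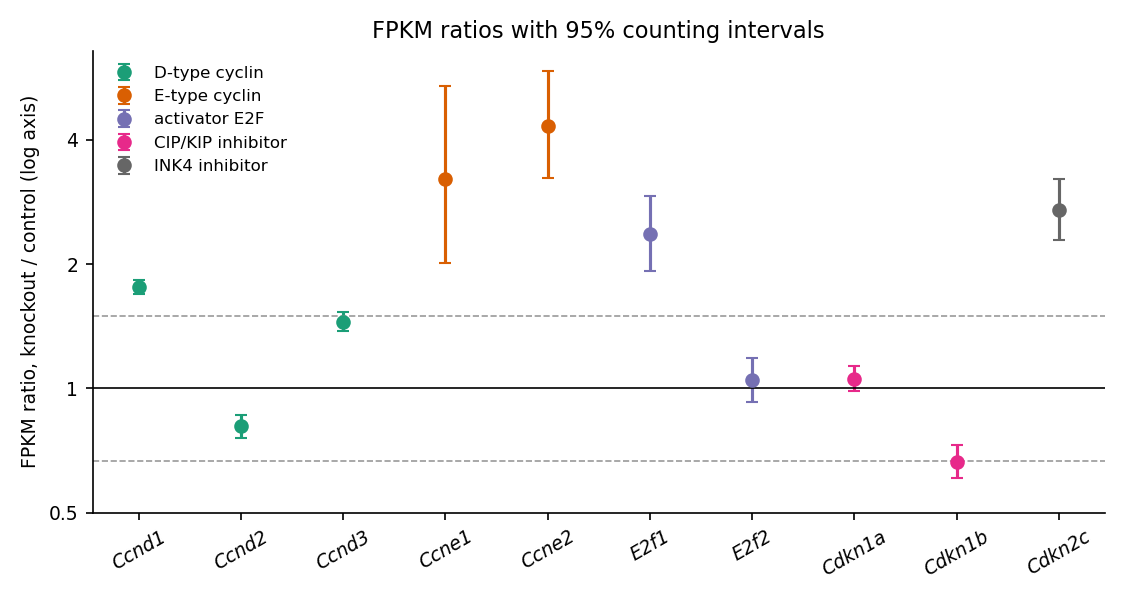
FPKM ratio of the knockout pool over the control pool for the 10 genes on a log axis, coloured by role; bars are 95% counting intervals and dashed lines mark 1.5-fold. The E-type cyclins had the highest ratios and the widest intervals, and the intervals of E2f2 and Cdkn1a include equality.

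The E-type cyclins were low in both pools and had the highest plain ratios of the 10 genes. Ccne2, on chromosome 4 from 11118501 to 11131926, had 5.21 FPKM in the knockout pool and 1.204 FPKM in the control pool. It was 4.33-fold higher (3.23 to 5.87), from about 201 reads in the knockout pool and 60 in the control pool, and only 1.74% of all genes had a higher log2 ratio. Both of its transcript records were higher, at 3.77 and 1.44 FPKM in the knockout pool and 0.718 and 0.485 FPKM in the control pool.

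Ccne2 overlaps Ints8, a subunit gene of the Integrator complex on the opposite strand, by up to 5622 bases. Ints8 went the other way, with 8.86 FPKM in the knockout pool and 11.9 FPKM in the control pool. This overlap was taken over whole loci, introns included, and the span of Ccne2 is 13426 bases. Reads that fall within the overlap may not be told apart without strand.

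Ccne1, on chromosome 7 from 38883003 to 38892509, had 2.53 FPKM in the knockout pool and 0.786 FPKM in the control pool. The ratio was 3.22 (2.02 to 5.39), from about 63 reads in the knockout pool and 25 in the control pool, the fewest of the 10 genes. Its log2 ratio of 0.98 fell just short of 2-fold on the log2(FPKM + 1) scale. Together the E-type cyclins had 7.74 FPKM in the knockout pool and 1.99 FPKM in the control pool. Ccne2 made up 67.3% of this in the knockout pool and 60.5% in the control pool, so it was the more abundant of the pair in each.

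The activator E2F genes diverged. E2f1, which with its relatives drives genes of S phase entry, had 8.52 FPKM in the knockout pool and 3.61 FPKM in the control pool. It was 2.36-fold higher (1.93 to 2.92), from about 268 reads in the knockout pool and 146 in the control pool. Its log2 ratio of 1.05 passed 2-fold, but with equal medians it was 0.995 and with a pseudocount of 3 it was 0.80, both short of it. Its record lies on chromosome 2 from 154385375 to 154395588. E2f2, on chromosome 4 from 135728309 to 135751971, had 7.99 FPKM in the knockout pool and 7.62 FPKM in the control pool. The interval of its ratio, 0.929 to 1.19, includes equality, and 49.0% of all genes had a higher log2 ratio. E2f1 was at about the level of E2f2 in the knockout pool, with a ratio of 1.07 between them, and at 0.474 of it in the control pool. The third activator, E2f3, had 3.70 FPKM in the knockout pool and 1.71 FPKM in the control pool. Of the sum of the 3, E2f1 made up 42.1% in the knockout pool and 27.9% in the control pool, and E2f2 39.5% in the knockout pool and 58.9% in the control pool. The window of E2f2 above holds the E2F octamer, and any link between that match and the level of the gene was not tested.

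**Figure D3:**
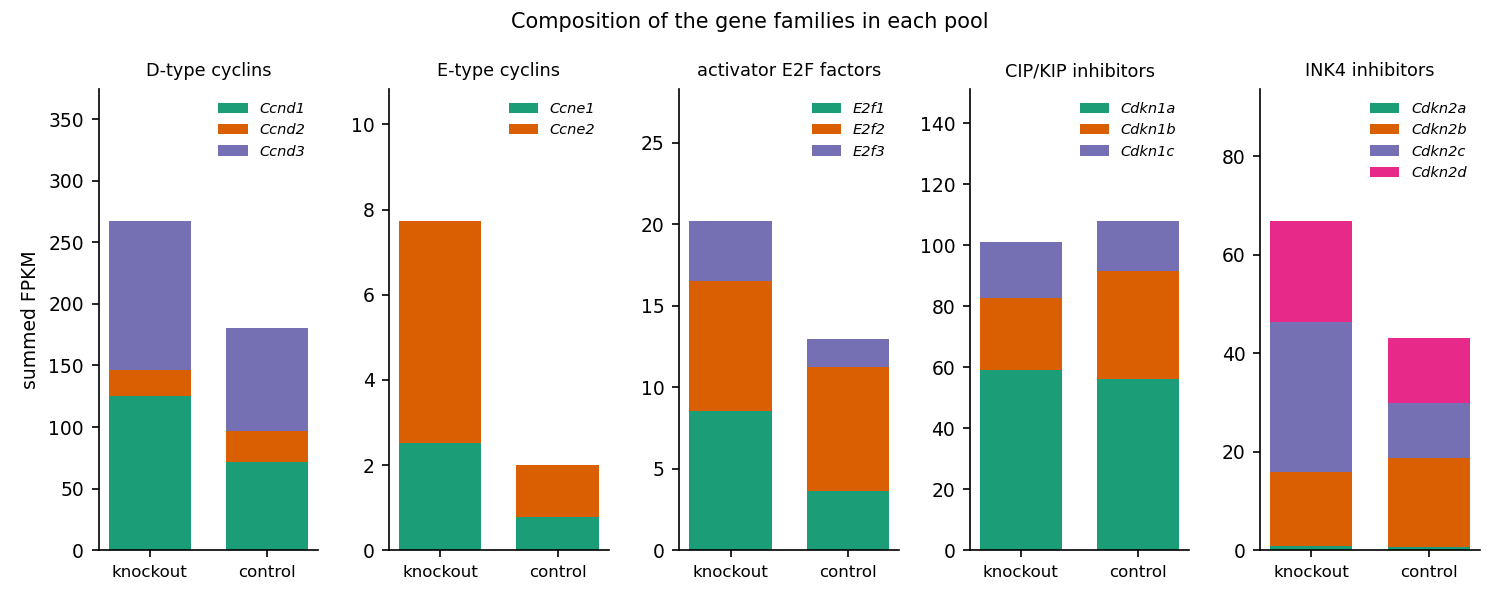
Summed FPKM of each gene family in the knockout pool (left bar) and the control pool (right bar), stacked by gene, 1 library each; each panel has its own axis from 0. D-type and E-type cyclins, activator E2F genes and INK4 inhibitors had higher sums in the knockout pool, and the CIP/KIP sum was slightly lower.

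Of the inhibitors, Cdkn2c passed 1.5-fold, and Cdkn1a and Cdkn1b did not. Cdkn2c encodes an INK4 inhibitor of CDK4 and CDK6 and is itself known as an E2F target. It had 30.5 FPKM in the knockout pool and 11.2 FPKM in the control pool, 2.71-fold higher (2.29 to 3.22), from about 431 reads in the knockout pool and 205 in the control pool. Its record lies on chromosome 4 from 109333481 to 109337977. Of all genes, 2.09% had a higher log2 ratio.

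The other INK4 genes were mixed. Cdkn2d had 20.6 FPKM in the knockout pool and 13.1 FPKM in the control pool, a ratio of 1.57 (1.34 to 1.85). Cdkn2b, known as a target of TGF-beta signalling, had 15.01 FPKM in the knockout pool and 18.04 FPKM in the control pool, a ratio of 0.832 (0.709 to 0.970). Cdkn2a was near the floor, at 0.841 FPKM in the knockout pool and 0.623 FPKM in the control pool. Summed INK4 FPKM was 66.9 in the knockout pool and 43.0 in the control pool. Cdkn2c made up 45.6% of the INK4 sum in the knockout pool and 26.1% in the control pool, where Cdkn2b was the most abundant at 42.0%.

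Cdkn1a, the CIP/KIP inhibitor induced by p53, had 59.2 FPKM in the knockout pool and 56.1 FPKM in the control pool. The ratio of 1.05 has an interval of 0.983 to 1.13, which includes equality. The gene has 2 records on chromosome 17 that end at 29237667 and start at 29227931 and 29230717. The downstream record held 54.6 FPKM in the knockout pool and 56.1 FPKM in the control pool. The upstream record held 4.65 FPKM in the knockout pool, about 115 reads or 7.85% of the gene, and 2.66e-05 FPKM in the control pool, about 0 reads. Taken in order along the plus strand, the starts lie 2786 bases apart in mm9, and the upstream and downstream windows printed above lie 2790 bases apart in GRCm38.p6. The records share most of their length, so this division rests on the reads of their separate starts, and no fold is given against a value this close to 0. The upstream window is the one with the p53 site of 1 mismatch, and any link between that match and this record was not tested.

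Other p53 targets showed no common direction. Of 18 such genes, 1 was at least 1.5-fold higher and 1 lower, against 9.41% and 4.63% of all genes. Their median log2 ratio was 0.09, near the 0.05 of all genes. Phlda3, an inhibitor of AKT signalling, had 46.7 FPKM in the knockout pool and 24.2 FPKM in the control pool. Trp53inp1, a stress-induced partner of p53, had 13.8 FPKM in the knockout pool and 26.2 FPKM in the control pool. The abundant Btg2, an antiproliferative gene, had 38.7 FPKM in the knockout pool and 47.3 FPKM in the control pool, and Ei24 had 44.5 FPKM in the knockout pool and 41.0 FPKM in the control pool.

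Cdkn1b, an inhibitor associated with quiescence and induced by FOXO factors, had the lowest log2 ratio of the 10 genes. It had 23.5 FPKM in the knockout pool and 35.4 FPKM in the control pool, 1.505-fold lower (1.37 to 1.65), from about 724 reads in the knockout pool and 1405 in the control pool. On the log2(FPKM + 1) scale its ratio of -0.57 lay just inside the 1.5-fold threshold, and 4.89% of all genes were lower. With a pseudocount of 0.1, with TPM, with equal medians, or without the 100 most abundant genes in the total, it passed the threshold. Its record lies on chromosome 6 from 134870419 to 134875543.

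Among 10 other FOXO targets, 2 were at least 1.5-fold lower and 0 higher, against 4.63% and 9.41% of all genes. Ratios were below 0 for 7 of them, against 43.2% of all genes, with a median log2 ratio of -0.46. Fbxo32, a ubiquitin ligase gene, had 1.69 FPKM in the knockout pool and 3.34 FPKM in the control pool. The abundant Txnip, an inhibitor of thioredoxin and of glucose uptake, had 179.6 FPKM in the knockout pool and 248.6 FPKM in the control pool, and Cat, the catalase gene, 76.6 FPKM in the knockout pool and 111.0 FPKM in the control pool. Klf2, a shear-responsive endothelial factor, went the other way, with 109.4 FPKM in the knockout pool and 76.0 FPKM in the control pool. Summed CIP/KIP FPKM, with Cdkn1c included, was 101.2 in the knockout pool and 108.1 in the control pool. Cdkn1a made up 58.5% of it in the knockout pool and 52.0% in the control pool, and Cdkn1b 23.3% in the knockout pool and 32.8% in the control pool.

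**Figure D4:**
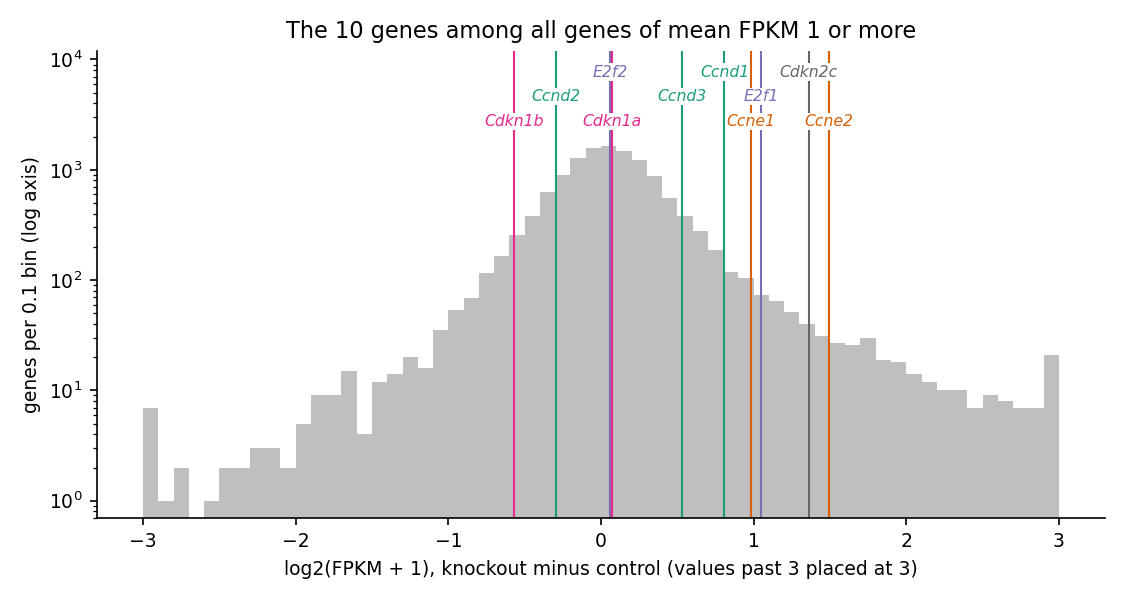
Histogram of the log2(FPKM + 1) difference, knockout minus control, over 12929 genes of mean FPKM 1 or more, with a log count axis; coloured lines mark the 10 genes by role, in the colours of the ratio plot. The genes run from Cdkn1b at -0.57 to Ccne2 at 1.49, around an overall median of 0.05.

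Of 12 kinases, adaptors and regulators of G1 and S phase, 4 were at least 1.5-fold higher, against 9.41% of all genes, and 0 were lower, with a median log2 ratio of 0.43. The 4 were Cdc25b, Cks1b, Cks2 and Skp2, of which all but Cks2 fall outside the rule for named genes. Cks2, a small adaptor of the cyclin-dependent kinases, had 33.4 FPKM in the knockout pool and 4.10 FPKM in the control pool. Cdk4, the partner of the D-type cyclins, had 60.9 FPKM in the knockout pool and 42.1 FPKM in the control pool, within 1.5-fold. Fbxw7, whose product marks cyclin E for degradation, had 6.26 FPKM in the knockout pool and 7.27 FPKM in the control pool.

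Of 11 pocket proteins, other E2F and DP factors, 5 were at least 1.5-fold higher and 0 lower, against 9.41% and 4.63% of all genes. Their median log2 ratio was 0.29. The repressor gene E2f7 had 3.18 FPKM in the knockout pool and 0.466 FPKM in the control pool. The DP partners differed in direction, with Tfdp1 at 23.3 FPKM in the knockout pool and 13.6 FPKM in the control pool, and Tfdp2 at 8.71 FPKM in the knockout pool and 12.7 FPKM in the control pool. The abundant E2f4, a factor of resting cells, had 22.8 FPKM in the knockout pool and 21.8 FPKM in the control pool. The retinoblastoma gene Rb1, outside the rule for named genes and picked with its values in view, had 9.61 FPKM in the knockout pool and 10.4 FPKM in the control pool.

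Of 7 genes for the MuvB core, B-Myb and FoxM1, 3 were at least 1.5-fold higher and 0 lower. The shares of all genes were 9.41% and 4.63%. Foxm1, which drives genes of the later cycle, had 11.3 FPKM in the knockout pool and 1.47 FPKM in the control pool. Lin52 had 7.92 FPKM in the knockout pool and 11.5 FPKM in the control pool, and Rbbp4 had 31.5 FPKM in the knockout pool and 25.9 FPKM in the control pool. Of 5 other kinase inhibitor genes, 4 were over the floor. At least 1.5-fold higher were 2 of them, Cdkn2d and the phosphatase gene Cdkn3, against 9.41% of all genes. Cdkn3, which acts on the cyclin-dependent kinases, had 8.49 FPKM in the knockout pool and 0.297 FPKM in the control pool. Cdkn1c had 18.4 FPKM in the knockout pool and 16.5 FPKM in the control pool.

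Upstream of the D-type cyclins, 0 of 9 mitogen-linked regulators were at least 1.5-fold higher and 2 lower, against 9.41% and 4.63% of all genes. Their median log2 ratio was -0.09. Myc had 4.01 FPKM in the knockout pool and 2.34 FPKM in the control pool, with a log2 ratio of 0.58 just inside the threshold. Mxi1, an antagonist of MYC, had 5.18 FPKM in the knockout pool and 8.78 FPKM in the control pool. Max had 34.0 FPKM in the knockout pool and 34.3 FPKM in the control pool, and Foxo1 14.5 FPKM in the knockout pool and 15.5 FPKM in the control pool. Foxo3 and Foxo4, outside the rule for named genes and picked with their values in view, encode relatives of Foxo1. Foxo3, the other of the 2 lower genes, had 9.17 FPKM in the knockout pool and 14.9 FPKM in the control pool. Foxo4 had 11.2 FPKM in the knockout pool and 16.5 FPKM in the control pool, within 1.5-fold.

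**Figure D5:**
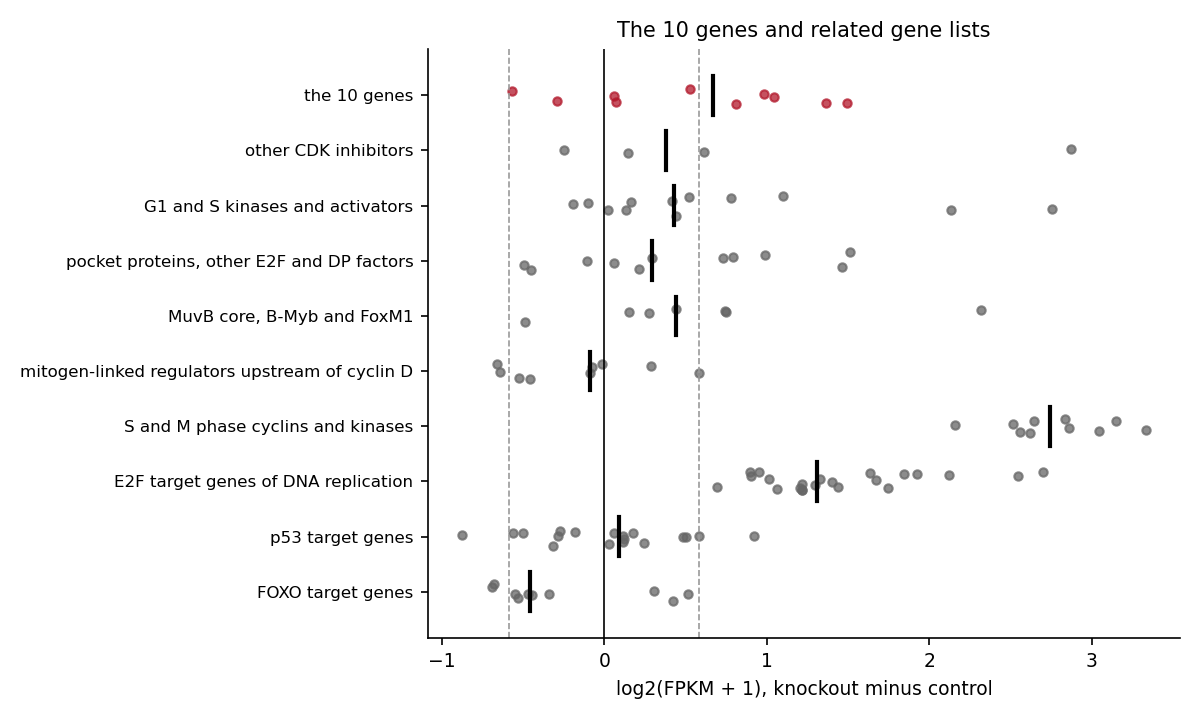
Log2(FPKM + 1) difference, knockout minus control, for the 10 genes (top row) and 9 related gene lists, 1 point per gene of mean FPKM 1 or more; black bars are medians and dashed lines mark 1.5-fold. The S and M phase genes and the replication genes lie wholly beyond 1.5-fold higher, whereas the 10 genes spread on both sides of 0.

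Replication and mitosis genes were all on the higher side, unlike the 10 G1 genes. All 22 E2F target genes of DNA replication were at least 1.5-fold higher, against 9.41% of all genes. Their median log2 ratio was 1.31, with a range of 0.70 (Mcm4) to 2.70 (Rrm2). Slbp, the histone stem-loop binding protein gene, had 28.7 FPKM in the knockout pool and 14.3 FPKM in the control pool, and Pcna had 93.3 FPKM in the knockout pool and 45.8 FPKM in the control pool. All 10 genes of the S and M phase list were at least 2-fold higher, against 3.75% of all genes. The list holds cyclins, kinases, Mki67 and Top2a. Its median log2 ratio was 2.74, led by Ccna2 at 3.33 and with the abundant Top2a at 3.15. The summed FPKM of the list was 172.6 in the knockout pool and 15.1 in the control pool. Ccnf, the lowest of that list by log2 ratio, had 7.19 FPKM in the knockout pool and 0.838 FPKM in the control pool. The highest log2 ratio among the 10 G1 genes, 1.49 for Ccne2, was thus below the lowest of this list, 2.16.

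Over the 2 libraries, the genes of the related lists whose log2 ratio lay nearest to that of Ccne2 were E2f7 at 1.51, E2f8 at 1.46 and Gins1 at 1.44, of 103 compared. Nearest to Cdkn1b at -0.57 were Sesn1 at -0.56, Bcl6 at -0.55 and Cat at -0.53. With 1 ratio per gene, this nearness describes the libraries and carries no more than that.

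Markers of cell types differed in direction between the pools. The summed FPKM of 4 mesenchymal markers was 362.3 in the knockout pool and 189.4 in the control pool. Of the 4, 2 were at least 1.5-fold higher, against 9.41% of all genes. By log2 ratio they ran from Pdgfra at 0.31 to Col1a1 at 1.36, with Acta2 at 1.15. The 4 leukocyte markers summed to 75.9 FPKM in the knockout pool and 45.7 FPKM in the control pool, with Cd68 of macrophages at 48.2 FPKM in the knockout pool and 21.7 FPKM in the control pool, while Cd3e of T cells had a log2 ratio of -0.10 and Ptprc 0.15. The 4 endothelial markers summed to 580.2 FPKM in the knockout pool and 594.8 FPKM in the control pool, from Tek at a log2 ratio of -0.53 to Kdr at 0.63, with Pecam1 at -0.023 and Cdh5 at -0.17. Epithelial markers ran from Scgb1a1 at -0.63 to Epcam at 0.14, with Sftpc at -0.21. The part of these markers in the G1 gene differences was not tested. Among genes of erythroid precursors, Klf1 and Gata1 were under 1 FPKM in both pools, and Alas2 and Epor had log2 ratios of -0.24 and 0.26. The 4 genes of lymphoid precursors summed to 0.542 FPKM in the knockout pool and 0.496 FPKM in the control pool, and Rag2 was listed at 0 in both.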

How the data were processed

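Lung RNA was sequenced from 2 libraries, 1 per genotype, grouped by the genotype in the labels. The authors deposited FPKM values for 28107 RefSeq transcript records per library, and, per the file headers, a coverage, which tracks FPKM by a constant factor within a library. Per the submitters' processing notes, the build was mm9 and DESeq was among the tools. The sources used here do not name the aligner, the quantifier or what DESeq did. Because FPKM is scaled to the library total, abundant transcripts can move all other values.

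FPKM was summed over the records of a gene symbol. Log2 ratios used a pseudocount of 1, and counts of genes used a mean FPKM of 1 or more and folds of 1.5 and 2. Approximate reads are coverage times length divided by the bases of 1 read, 47.5 for the knockout pool and 47.4 for the control pool, the median over low single-record genes. Intervals are 95% exact conditional (Clopper-Pearson) intervals of these reads and cover counting error only. They were checked on simulated reads of equal depth that held only the counting error the intervals assume. That check covers the calculation, and not the approximate reads, the unequal depth or the division between records of the real libraries. Positions of records are 1-based: the files' starts count from 0, as 3284 records span exactly their length on that count and 0 on the other. Python 3.11.15, pandas 2.3.3 and scipy 1.17.1 were used. No p-value was computed, since there are no replicates.

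The genes and lists were chosen with earlier results of these data known. The text names all 10 genes and, from each related list, the highest and lowest log2 ratio and the 2 most abundant genes. Alternatives varied the pseudocount, the floor, the scaling and the records used.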

Additional observations from a re-analysis of the deposited data

How the results depend on the processing

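Of 87 log2 ratios of the 10 genes under the alternatives, 78 stayed within the counting interval of the reported value and 9 moved outside it. Not all 87 could move, so the 78 overstate stability. The floors only change which genes enter, and a gene with 1 record keeps its value under the record choices. With a pseudocount of 0.1, Ccne1 had 1.57 and Ccne2 2.03, and with a pseudocount of 3, Ccne1 had 0.55, Ccne2 0.97 and E2f1 0.80. Ccne2 had 1.81 as TPM, Ccnd1 0.75 with equal medians, Ccnd3 0.67 and Cdkn1a -0.041 from the most abundant record alone. Ccnd1, Ccne2, E2f1 and Cdkn2c stayed at least 1.5-fold higher in every alternative that gave them a value, and Ccne1 in all but the pseudocount of 3. A floor of 5 FPKM, which leaves out Ccne1 and Ccne2, gave 3 genes at least 1.5-fold higher. The count at least 2-fold higher was 1, Cdkn2c, with a pseudocount of 3, and 2 with equal medians, where E2f1 had 0.995. It was 2 with the floor of 5 and 4 with TPM or a pseudocount of 0.1, where Ccne1 passed. From the most abundant record alone, Ccnd3 passed and 6 genes were at least 1.5-fold higher. The count at least 1.5-fold lower was 1, Cdkn1b, with a pseudocount of 0.1, TPM, equal medians, or the total without the 100 most abundant genes. Without Ccnd3, an alternative added after seeing the data, 5 of 9 genes were higher.

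Over all genes, a floor of 5 gave 745 genes at least 1.5-fold higher, 392 lower and 268 at least 2-fold higher. A pseudocount of 3 gave 371 genes at least 1.5-fold lower, 275 at least 2-fold higher and 104 at least 2-fold lower, and a pseudocount of 0.1 gave 267 at least 2-fold lower. TPM gave 955 and 293 genes lower at the folds of 1.5 and 2. These shifts follow from the settings' own construction, which changes the genes that enter or the weight of low values.

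Records with status OK gave no value for Ccnd3. Each genotype has 1 library, so none was left out. No paired analysis was possible because there is 1 library per genotype. Depth limits Ccne1 most, with about 25 reads in the control pool.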

Other observations

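Ratios of levels between pairs of the genes, chosen after their values were seen, differed between the pools. Ccnd1 was 5.33 times as abundant per length as Cdkn1b in the knockout pool and 2.01 times in the control pool. Cdk4 was 1.997 times as abundant as its inhibitor Cdkn2c in the knockout pool and 3.74 times in the control pool. Cdkn1a was 2.51 times as abundant as Cdkn1b in the knockout pool and 1.58 times in the control pool.

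Values of other pocket protein genes follow. Rbl1, which rises in cycling cells, had 9.54 FPKM in the knockout pool and 4.31 FPKM in the control pool. Rbl2, the pocket protein typical of resting cells, had 9.97 FPKM in the knockout pool and 14.0 FPKM in the control pool, within 1.5-fold. Both were chosen after their values were seen.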
